A study of Mus musculus with 18 samples.

Results

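The 10 genes described here are widely used to mark the thermogenic program of brown fat: Ucp1, Cidea, Dio2, Ppargc1a, Ppargc1b, Elovl3, Prdm16, Otop1, Kcnk3 and Zic1. They were taken by symbol from the deposited gene counts, and all 10 were found among 55487 genes. RNA was sequenced from subcutaneous white adipose tissue (sWAT) of male mice at 12 weeks of age (4 Ctrl and 4 Csn8AKO) and from brown adipose tissue (BAT) of male mice at 4 weeks of age (5 Ctrl and 5 Csn8AKO), with 1 mouse per library and 18 libraries in all. All mice carried floxed Csn8 alleles (Csn8 f/f) and ate chow. Csn8AKO mice also carried Cre under the adiponectin promoter, which is active in white and brown adipocytes alike, and Ctrl mice were littermates without Cre. The 2 depots came from mice of different ages, so depot and age cannot be told apart in any comparison between them.

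Brown adipocytes release heat by letting protons return through the inner mitochondrial membrane without making ATP, and UCP1 is the protein that lets them through. Noradrenaline from sympathetic nerves acts on beta-adrenergic receptors and raises cAMP, which frees fatty acids and induces Ucp1, Dio2 and Ppargc1a. Brown-like (beige) adipocytes can appear within subcutaneous white fat and use many of the same genes. Among the 10, Prdm16 and Zic1 encode transcriptional regulators, Ppargc1a and Ppargc1b encode coactivators of mitochondrial genes, Dio2 encodes the enzyme that makes active thyroid hormone within the cell, Elovl3 elongates very long chain fatty acids, Cidea encodes a lipid droplet protein, Otop1 encodes a proton channel and Kcnk3 encodes a potassium channel.

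Between 15835721 and 66719937 reads were counted per library. Genes of ribosomal RNA took 1.80 to 47.8% of the counts in sWAT and 0.863 to 15.1% in BAT. The targeted gene is listed as Cops8. Levels are given in RPKM, reads per kilobase of gene length, scaled to library size with TMM factors. Cops8 stood at 7.17 to 8.04 RPKM in Ctrl and 6.07 to 7.84 RPKM in Csn8AKO sWAT. In BAT it stood at 8.56 to 10.4 RPKM in Ctrl and 6.37 to 8.40 RPKM in Csn8AKO. Its log2 fold change was -0.12 in sWAT (adjusted p = 0.623) and -0.30 in BAT (adjusted p = 0.0211). The deletion removes only some exons, counts were summed over the whole gene, and other cells of the tissue keep the gene, so these values check the labels weakly. Several libraries stood apart. Sums of markers are given in CPM, counts scaled to library size with TMM factors. Lymphocyte markers summed to 307 CPM in Ctrl sWAT replicate 1 and 584 CPM in Csn8AKO sWAT replicate 2. The other sWAT libraries had sums of 10.1 to 34.8 CPM. Skeletal muscle markers summed to 284 and 516 CPM in Csn8AKO BAT replicates 1 and 5, against 20.3 to 51.0 CPM in the other BAT libraries. In sWAT they summed to 5112 CPM in Ctrl replicate 3 and 3129 CPM in Csn8AKO replicate 4, against 183 to 1261 CPM in the others, and the 4 calls of lower genes in sWAT remained with either of these left out. Leaving out the pair rich in lymphocyte transcripts or the BAT pair with muscle transcripts changed 1 call on the 10 genes within a depot, that of Ppargc1a in sWAT.

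The genes lie on mouse chromosomes 4, 5, 8, 9, 12, 18 and 19 (GRCm38, positions as deposited). Ucp1 spans 83290352 to 83298452 on the plus strand of chromosome 8, and the whole annotated gene was counted, with 1636 bases of exon. Reads of a few genes could be shared with neighbours, since the strand setting of the counting is not stated. Kcnk3 shares 229 exon bases with Gm9899 on the opposite strand, Prdm16 shares 109 with B230104I21Rik, Dio2 shares 100 with Gm26512, Zic1 shares 60 with Zic4 and Elovl3 shares 10 with Pitx3.

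RefSeq gene starts (GRCm38.p6) gave a promoter window for 6 of the 10 genes. In the 250 bases before the start, the core of the cAMP response element, TGACG, read on both strands, was found in Ucp1, Ppargc1a and Dio2 and not in Prdm16, Otop1 or Zic1. It was present in 17.8% of all 32851 windows of that length. The full element TGACGTCA, which contains that core on each strand, was found in Dio2 and in 1.55% of all windows. The last 150 bases before the start are shown for the 3 genes with a match, because cAMP is the known inducer of all of them; capitals mark TGACG on either strand and, in Dio2, the TATA box TATAAA, which 12.4% of windows held. The windows are chr8:83290198-83290347 on the plus strand, chr5:51567726-51567875 on the minus strand and chr12:90739039-90739188 on the minus strand. The RefSeq start of Dio2 lies beyond the end of that gene in the deposited annotation.
Ucp1: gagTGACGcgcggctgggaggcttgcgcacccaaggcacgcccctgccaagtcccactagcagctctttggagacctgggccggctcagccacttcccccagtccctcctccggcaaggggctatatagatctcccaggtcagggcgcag
Ppargc1a: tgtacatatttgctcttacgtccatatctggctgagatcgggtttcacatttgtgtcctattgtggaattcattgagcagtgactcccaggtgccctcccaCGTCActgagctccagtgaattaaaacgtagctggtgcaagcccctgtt
Dio2: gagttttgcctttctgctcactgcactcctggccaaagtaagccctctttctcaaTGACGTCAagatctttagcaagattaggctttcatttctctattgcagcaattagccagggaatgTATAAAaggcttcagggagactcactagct
A match is a run of letters and no measurement of binding.

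Before genotypes were compared, the depots of Ctrl mice were set side by side. All 10 genes, which were chosen as markers of brown fat, were higher in BAT than in sWAT, and for all 10 the 2 groups did not overlap. In both genotypes Ucp1 and Zic1 passed the filter of this fit only through their BAT counts. A call of lower in BAT was therefore not open to these 2 genes, and their calls add no support. Of all 22509 genes tested, 25.9% were called higher in Ctrl BAT, and 23.8% had Ctrl BAT libraries all above Ctrl sWAT libraries. A gene was called at an adjusted p under 0.05. Ucp1 was at 1000.3, 1228, 2048, 1715 and 2801 RPKM in the 5 Ctrl BAT libraries and at 0.182, 4.16, 0.350 and 0.217 RPKM in the 4 Ctrl sWAT libraries. One white fat library, replicate 2, held most of the sWAT signal. The ratio of group means was 1432 for Ucp1, 268 for Dio2, 57.7 for Elovl3, 40.5 for Cidea, 25.0 for Otop1, 18.9 for Ppargc1b, 18.0 for Ppargc1a, 14.5 for Kcnk3 and 2.64 for Prdm16. Zic1, a gene of the classical brown fat lineage, had 0, 0, 4 and 0 counts in Ctrl sWAT and 149 to 720 counts in Ctrl BAT. Prdm16 had the smallest ratio, at 3.50 to 4.95 RPKM in Ctrl sWAT and 10.4 to 11.3 RPKM in Ctrl BAT. In Csn8AKO mice all 10 genes were again higher in BAT without overlap, where 24.9% of all genes were called higher and 19.8% did not overlap, and the ratio of means was 5083 for Cidea, 148 for Otop1, 57.2 for Kcnk3 and 6.63 for Prdm16.

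Within Ctrl BAT the order of mean levels was Ucp1 (1758 ± 712 RPKM, SD, n = 5), Cidea (1513 ± 143), Kcnk3 (149 ± 12.8), Ppargc1b (96.3 ± 9.70), Otop1 (71.3 ± 14.6), Dio2 (32.0 ± 21.5), Ppargc1a (27.6 ± 15.8), Elovl3 (11.0 ± 6.39), Prdm16 (10.8 ± 0.311) and Zic1 (1.10 ± 0.620). Ucp1 and Cidea overlapped, as did Ppargc1b and Otop1, Otop1 and Dio2, Dio2 and Ppargc1a, Ppargc1a and Elovl3, and Elovl3 and Prdm16. Dio2, Ppargc1a, Zic1, Elovl3 and Ucp1 varied most among the Ctrl BAT libraries relative to their level, while Prdm16, Kcnk3, Cidea and Ppargc1b varied little. In Ctrl sWAT the order was Cidea (37.3 ± 23.0 RPKM, SD, n = 4), Kcnk3 (10.3 ± 2.83), Ppargc1b (5.11 ± 2.07), Prdm16 (4.08 ± 0.618), Otop1 (2.85 ± 1.86), Ppargc1a (1.53 ± 0.559), Ucp1 (1.23 ± 1.96), Elovl3 (0.191 ± 0.275), Dio2 (0.119 ± 0.115) and Zic1 (0.0101 ± 0.0201). From Ppargc1b downwards each neighbouring pair in that order overlapped, while Cidea lay above Kcnk3 and Kcnk3 above Ppargc1b without overlap.

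**Figure D1:**
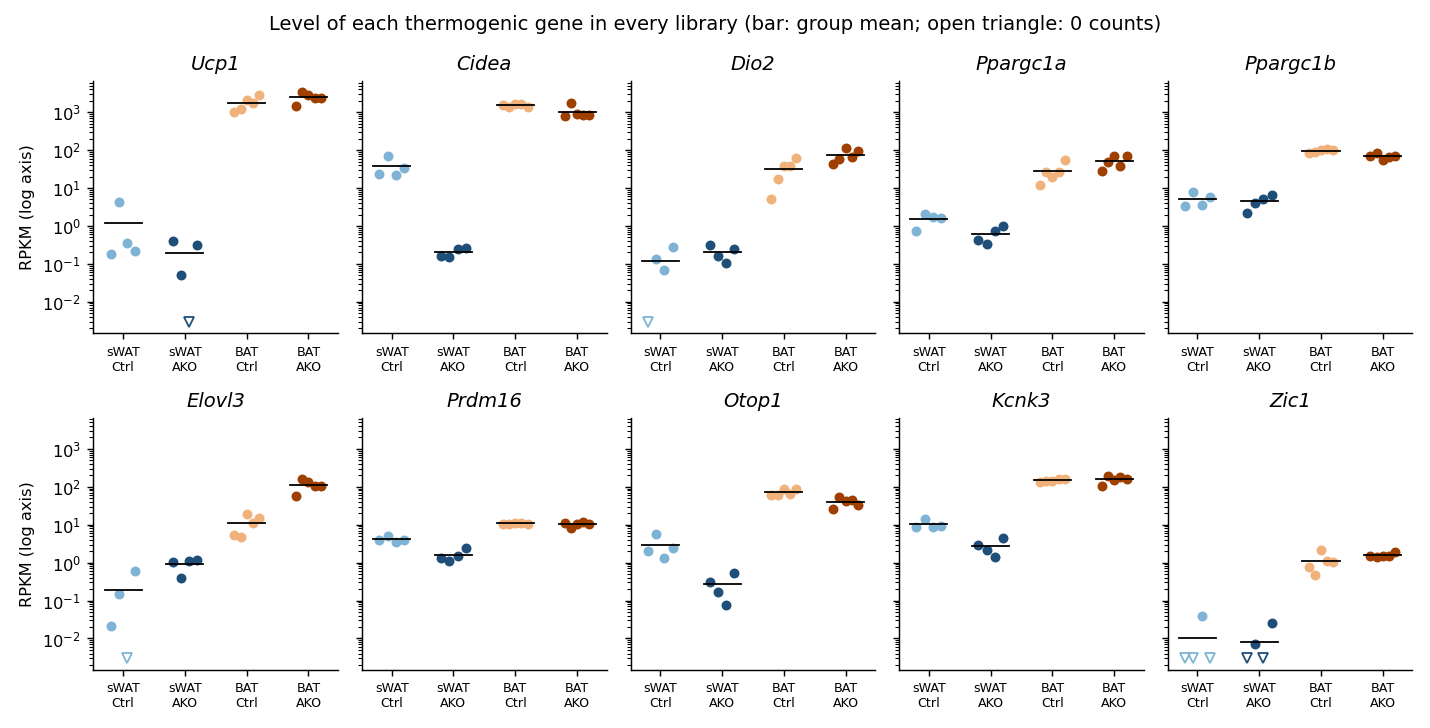
Level of each gene in RPKM on a log axis, 1 panel per gene and 1 point per library, for sWAT Ctrl, sWAT Csn8AKO (AKO), BAT Ctrl and BAT Csn8AKO; bars are group means and open triangles are libraries with 0 counts. All 10 genes sit higher in BAT, and the 4 Csn8AKO sWAT points of Cidea, Kcnk3, Otop1 and Prdm16 lie below all 4 Ctrl points.

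In sWAT, 4 of the 10 genes were lower in Csn8AKO than in Ctrl: Cidea, Otop1, Kcnk3 and Prdm16. None was called higher. Ucp1 and Zic1 had too few counts to be tested, so the count is 4 of 8, where 3.00% of all 18843 tested genes were called lower and 2.30% higher. In whole tissue fewer adipocytes and less RNA per adipocyte cannot be told apart. The values below are levels in RPKM, and fold changes are log2 differences from the fit within the depot.

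Cidea, the lipid droplet gene, was at 22.9, 70.9, 22.1 and 33.5 RPKM in Ctrl sWAT and at 0.163, 0.150, 0.241 and 0.260 RPKM in Csn8AKO sWAT, where each library had 4 counts. The groups lay far apart, with 0.544% of the Ctrl mean left. The log2 fold change was -7.52 ± 0.51 (SE, adjusted p = 2.27e-04). Otop1, the proton channel, was at 2.07, 5.56, 1.35 and 2.42 RPKM in Ctrl and at 0.317, 0.170, 0.0779 and 0.525 RPKM in Csn8AKO, again without overlap and with 9.57% of the Ctrl mean left. Its log2 fold change was -3.38 ± 0.60 (adjusted p = 0.0149), and it missed the threshold without Csn8AKO replicate 1 (-3.47, adjusted p = 0.0519).

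Kcnk3, a channel that sets the membrane potential, was at 8.64, 14.5, 8.73 and 9.21 RPKM in Ctrl sWAT and at 2.93, 2.20, 1.45 and 4.49 RPKM in Csn8AKO sWAT. Its log2 fold change was -1.88 ± 0.32 (adjusted p = 0.0128). Prdm16, the regulator that favours brown and beige over muscle and white gene programs, was at 3.91, 4.95, 3.50 and 3.94 RPKM in Ctrl and at 1.30, 1.08, 1.53 and 2.36 RPKM in Csn8AKO. Its log2 fold change was -1.37 ± 0.23 (adjusted p = 0.00903). For both genes every Csn8AKO library lay below every Ctrl library, with 26.9 and 38.5% of the Ctrl mean left. Of all tested genes, 7.98% had Csn8AKO sWAT libraries all below Ctrl and 5.64% all above.

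The other genes of the program did not pass the test in sWAT. Ppargc1a was at 0.748, 2.07, 1.69 and 1.61 RPKM in Ctrl and at 0.414, 0.343, 0.722 and 1.02 RPKM in Csn8AKO (log2 fold change -1.29 ± 0.39, adjusted p = 0.0906), and only Ctrl replicate 1 fell within the Csn8AKO range. It passed under 6 alternatives: DESeq2 (-1.28, adjusted p = 0.0165), limma voom (0.0450), library size alone (0.0349), and without Ctrl replicate 1 (0.0426), Csn8AKO replicate 4 (0.0416) or the 2 libraries rich in lymphocyte transcripts (-1.32, adjusted p = 0.0220). For Ppargc1b most of the 2 ranges overlapped, at 3.31 to 7.70 RPKM in Ctrl and 2.16 to 6.56 RPKM in Csn8AKO (-0.16 ± 0.36, adjusted p = 0.851). Elovl3 had 0 to 23 counts in Ctrl and 18 to 46 counts in Csn8AKO (2.27 ± 0.89, adjusted p = 0.185), and Dio2 had 0 to 31 and 9 to 39 counts (0.80 ± 0.80, adjusted p = 0.640).

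Ucp1 itself was barely present in either sWAT group. It had 7, 136, 10 and 7 counts in Ctrl and 14, 2, 0 and 7 counts in Csn8AKO. The groups overlapped, and 1 library, Ctrl replicate 2, held 136 of the Ctrl counts and also had the highest Cidea, Otop1, Kcnk3, Prdm16, Ppargc1a and Ppargc1b of its group. With the filter on low counts removed, the log2 fold change was -2.68 with a 95% interval of -6.16 to 0.80 (adjusted p = 0.525). Without Ctrl replicate 2 the 4 calls in sWAT remained, with log2 fold changes of -7.03 for Cidea, -2.86 for Otop1, -1.69 for Kcnk3 and -1.29 for Prdm16.

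In BAT the 10 genes did not move one way. Ppargc1b and Otop1 were lower in Csn8AKO, Elovl3 was higher, and the other 7 genes did not pass the test. Of all 22345 genes tested in BAT, 15.8% were called lower and 16.0% higher, so 2 lower and 1 higher of 10 were near the shares of all genes. The median log2 fold change of the 10 genes was 0.31, against 0.0063 for all genes tested.

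Ucp1 was at 1000.3, 1228, 2048, 1715 and 2801 RPKM in Ctrl BAT and at 1484, 3306, 2918, 2409.6 and 2438 RPKM in Csn8AKO BAT. The groups overlapped and the Csn8AKO mean was 143% of the Ctrl mean. The log2 fold change was 0.53 ± 0.27 with a 95% interval of -0.07 to 1.13 (adjusted p = 0.167). Without Ctrl replicate 5, the library with the highest Ucp1 of its group, it was 0.76 (adjusted p = 0.0331). Under every alternative run within BAT the Ucp1 difference was above 0.

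Cidea was at 1573, 1337, 1644, 1628 and 1381 RPKM in Ctrl BAT and at 790, 1774, 918, 831 and 854 RPKM in Csn8AKO BAT. In 4 of 5 Csn8AKO libraries it lay below all Ctrl libraries, and in replicate 2 it lay above them. The log2 fold change was -0.53 ± 0.20 (adjusted p = 0.0558), and without Csn8AKO replicate 2 it was -0.81 (adjusted p = 1.56e-05). That library also had the highest Ucp1 and Elovl3 among the 5, the highest summed nuclear oxidative phosphorylation genes (37298 CPM against 24893 to 25861 CPM in the others) and the highest share of ribosomal RNA in BAT, 15.1%. Their part in its Cidea level was not tested.

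Otop1 was at 59.3, 59.6, 89.2, 63.4 and 85.1 RPKM in Ctrl BAT and at 25.5, 55.3, 42.6, 44.3 and 33.8 RPKM in Csn8AKO BAT, with no overlap (log2 fold change -0.81 ± 0.19, adjusted p = 0.00689). Ppargc1b, which drives mitochondrial gene expression together with nuclear receptors, was at 83.6 to 106 RPKM in Ctrl and 55.1 to 81.9 RPKM in Csn8AKO, also with no overlap (-0.48 ± 0.11, adjusted p = 0.00472). Of all tested genes, 11.6% had Csn8AKO BAT libraries all below Ctrl. When the 4 groups were fitted together with 1 estimate of the spread, both missed the threshold at fold changes of like size (Otop1 -0.82, adjusted p = 0.0750, and Ppargc1b -0.50, adjusted p = 0.143).

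Elovl3 moved the other way. It was at 5.20, 4.60, 19.7, 11.0 and 14.6 RPKM in Ctrl BAT and at 57.2, 157, 132, 104 and 103 RPKM in Csn8AKO BAT. Every Csn8AKO library lay above every Ctrl library, which 9.50% of all tested genes showed, and the log2 fold change was 3.34 ± 0.48 (adjusted p = 8.19e-04). The cAMP-induced genes had higher means that did not pass the test: Dio2 at 5.23 to 61.0 RPKM in Ctrl and 42.9 to 116 RPKM in Csn8AKO (1.26 ± 0.59, adjusted p = 0.141), and Ppargc1a at 11.8 to 53.7 and 27.4 to 70.9 RPKM (0.91 ± 0.42, adjusted p = 0.131).

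For Prdm16 and Kcnk3 the BAT intervals were narrow around 0. Prdm16 was at 10.4 to 11.3 RPKM in Ctrl and 8.23 to 11.9 RPKM in Csn8AKO, with a log2 fold change of -0.03 and a 95% interval of -0.23 to 0.17. Kcnk3 was at 137 to 165 RPKM in Ctrl and 103 to 189 RPKM in Csn8AKO, with a log2 fold change of 0.10 and an interval of -0.20 to 0.41. Zic1, low throughout, was at 0.459 to 2.11 RPKM in Ctrl and 1.39 to 1.89 RPKM in Csn8AKO (0.52 ± 0.32, adjusted p = 0.249), and without Ctrl replicate 3 the difference was 0.90 (adjusted p = 0.00965).

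**Figure D2:**
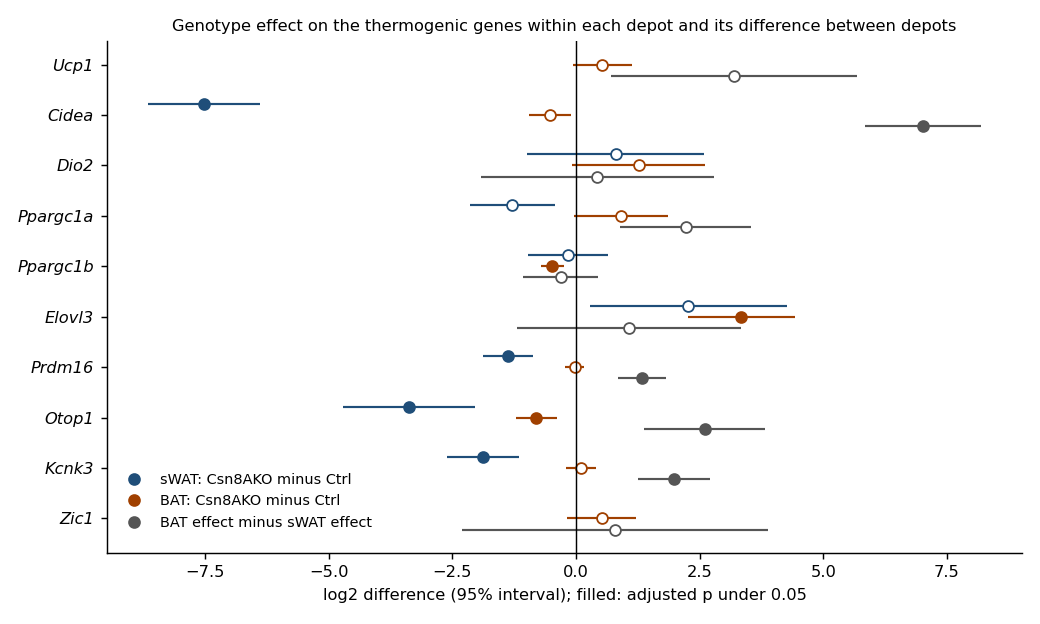
Log2 difference of each gene between Csn8AKO and Ctrl in sWAT (blue) and BAT (orange), and the difference of the 2 effects (grey), with 95% intervals; filled points have an adjusted p under 0.05. The sWAT effects of Cidea, Otop1, Kcnk3 and Prdm16 lie well below 0 while their BAT effects lie between -0.81 and 0.10, and Ucp1 and Zic1 have no sWAT point because they were not tested there.

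The question of equal loss in the 2 depots was put to RNA levels, which are relative to the RNA sequenced from the tissue left. It was tested directly as the difference of the genotype effects, BAT minus sWAT, over all 18 libraries. The paper reports that Csn8AKO mice lost mass in both depots, more severely in BAT. That loss of tissue is not part of the test. The effect was more negative in sWAT for 4 of 10 genes, the same 4 that were lower there, while 1.61% of all genes were called in that direction and 0.755% in the other. The difference was 7.02 ± 0.56 for Cidea (log2, SE, adjusted p = 1.84e-06), 2.60 ± 0.58 for Otop1 (adjusted p = 0.0241), 1.98 ± 0.35 for Kcnk3 (adjusted p = 0.00409) and 1.33 ± 0.23 for Prdm16 (adjusted p = 0.00409). For Cidea, 0.544% of the Ctrl mean was left in sWAT and 68.3% in BAT. For Otop1 the values were 9.57 and 56.5%, for Kcnk3 26.9 and 106%, and for Prdm16 38.5 and 96.4%.

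The other 6 genes did not pass this test. Ppargc1a came closest, with a difference of 2.22 and a 95% interval of 0.89 to 3.55 (adjusted p = 0.0799). It passed under 6 alternatives with differences of 2.21 to 2.61, namely DESeq2 (adjusted p = 0.0042), library size alone (0.0131), the replicate block (0.0237), and without BAT Ctrl replicate 5 (0.0210), sWAT Ctrl replicate 1 (0.0445) or sWAT Csn8AKO replicate 4 (0.0485). Ucp1 and Zic1 had too few counts for a test within sWAT and passed the filter here only through their BAT counts. Their differences rest on very few sWAT counts and cannot answer the question for these genes. Ucp1 had a difference of 3.20, with an interval of 0.72 to 5.69 (adjusted p = 0.186). Without Ctrl sWAT replicate 2 that difference was 0.88 (adjusted p = 0.704). The intervals were -1.19 to 3.34 for Elovl3, -1.92 to 2.79 for Dio2, -2.31 to 3.88 for Zic1 and -1.07 to 0.45 for Ppargc1b. Differences of either sign within those bounds are not excluded.
 

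**Figure D3:**
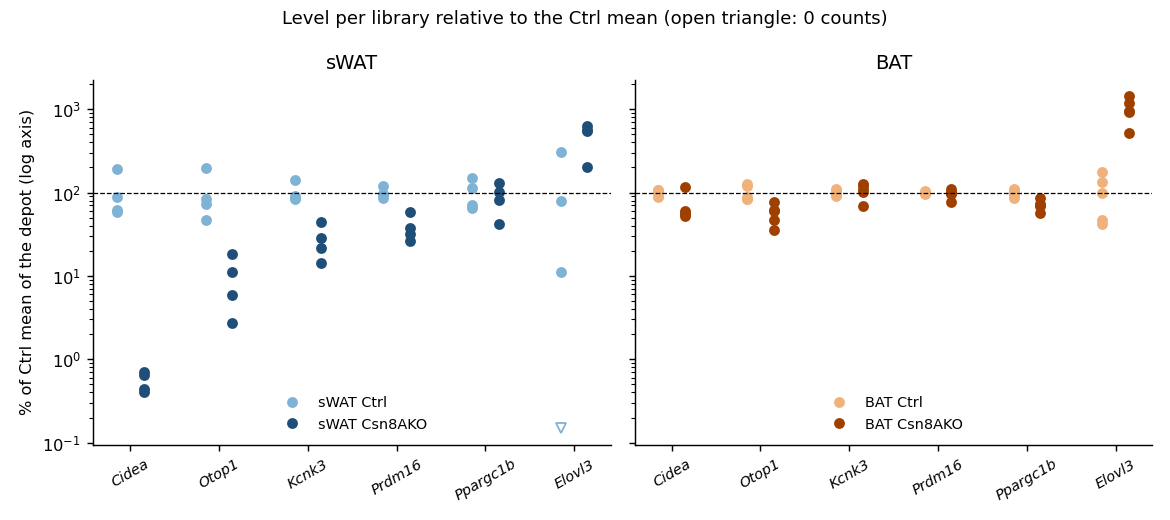
Level of 6 genes in each library as a percentage of the Ctrl mean of its depot, on a log axis, in sWAT (left) and BAT (right); the dashed line is 100% and an open triangle is a library with 0 counts. Csn8AKO points of Cidea fall to 0.402 to 0.695% in sWAT and to 52.2 to 117% in BAT.

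Summed adipocyte transcripts were lower in Csn8AKO libraries of both depots. The 20 adipocyte markers summed to 36688 to 75335 CPM in Ctrl sWAT and 13280 to 31927 CPM in Csn8AKO sWAT, and to 84486 to 126410 CPM in Ctrl BAT and 50744 to 75114 CPM in Csn8AKO BAT. In sWAT 9 of the 20 were called lower and none higher (median of the log2 fold changes -1.03), and in BAT 8 were lower and none higher (median -0.23). Without Ctrl sWAT replicate 2 the sWAT count was 3, and with library size alone the BAT counts were 7 lower and 4 higher. Macrophage markers moved the opposite way, from 1181 to 1628 CPM in Ctrl sWAT to 1981 to 3483 CPM in Csn8AKO sWAT and from 134 to 184 CPM to 465 to 644 CPM in BAT. Of the 15 markers, 9 were called higher in sWAT and 14 in BAT. Fibroblast markers were higher for 1 of 10 in sWAT and 10 of 10 in BAT, and nerve-sheath markers for 1 of 8 in sWAT and 7 of 8 in BAT, with 1 lower. Of muscle markers 0 of 13 were called in sWAT, and 1 was lower and 3 higher of 8 in BAT. Of 10 endothelial and 10 lymphocyte markers none was called in sWAT, and 3 of each were higher in BAT, with 1 lymphocyte marker lower. None of the epithelial markers tested was called. The part of cell makeup in the results was not tested.

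When sWAT libraries were scaled to 5 adipocyte genes (Plin1, Fabp4, Cidec, Pparg and Lipe) in place of all genes, the median log2 fold change of all genes was 0.95 in place of 0.032, and 107 genes were called lower and 6413 higher in place of 566 and 434. On that scale Cidea was still lower in Csn8AKO sWAT (-6.59, adjusted p = 9.73e-06), as were Otop1 (-2.54, adjusted p = 0.00896) and Kcnk3 (-1.02, adjusted p = 0.0393). Prdm16 no longer passed (-0.56, adjusted p = 0.114). The difference between depots was then 6.07 for Cidea, 1.73 for Otop1 and 1.13 for Kcnk3, all still called, and 0.54 for Prdm16 (adjusted p = 0.0984).

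Other genes of the brown fat program were counted from lists that were chosen with earlier results of these data known. Beside all list and marker counts stand the shares of all tested genes. These were 3.00% lower and 2.30% higher in sWAT, and 15.8% lower and 16.0% higher in BAT. Of 32 further genes enriched in brown adipocytes, mostly of fuel use, 29 were tested in sWAT, with 7 lower and 1 higher, and all 32 in BAT, with 14 lower and 3 higher. The medians were -0.70 and -0.51. In sWAT, scaled to the 5 adipocyte genes, 3 were lower and 5 higher, and 2 were lower without Ctrl replicate 2. Mpzl2 was lower in both depots (-3.79 in sWAT, adjusted p = 0.00284, and -1.04 in BAT, adjusted p = 1.59e-05), and the effects differed by 2.79 (adjusted p = 4.93e-04). Fbp2, a gluconeogenic phosphatase, was at 11.0 to 18.4 RPKM in Ctrl BAT and 1.43 to 3.46 RPKM in Csn8AKO BAT (-2.86, adjusted p = 3.85e-06). The genotype effect on Me1, malic enzyme, which supplies NADPH, differed between the depots by 2.16 (adjusted p = 0.0350). Me1 was at 58.1 to 232 RPKM in Ctrl and 21.7 to 60.2 RPKM in Csn8AKO sWAT. In BAT it was at 94.1 to 185 RPKM in Ctrl and 202 to 316 RPKM in Csn8AKO. Of the 32 genes, 2 (6.25%) had a more negative effect called in sWAT, Mpzl2 and Me1, and 1 (3.12%) went the other way. Of all genes, 1.61 and 0.755% were called in those directions.

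Of 27 transcription factors and cofactors, 26 were tested in sWAT, with 1 lower and 0 higher, and 27 in BAT, with 10 lower and 3 higher. The gene called in sWAT was Thrb, a thyroid hormone receptor (-1.12, adjusted p = 0.00930). In BAT Cebpa (-0.95, adjusted p = 6.59e-05), Ebf2 (-0.58, adjusted p = 6.03e-04) and Esrrg (-0.74, adjusted p = 8.53e-04), an orphan receptor that activates mitochondrial genes, were among those lower. None of the 27 was called in the difference between depots.

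Some respiratory chain genes were called lower in BAT. Of 29 nuclear genes of the respiratory chain and citric acid cycle tested, 12 were lower and 0 higher in BAT, with a median of -0.27, and 1 was lower and 0 higher in sWAT, with a median of -0.34. Of the 13 protein-coding mitochondrial genes, 9 were lower and 0 higher in BAT and none was called in sWAT. The BAT counts rested on the libraries used: without Csn8AKO replicate 2 they were 24 and 12, and without the 2 libraries with muscle transcripts they were 3 and 3. No member of either list was called in the difference between depots.

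The adrenergic input differed between depots for 3 receptors. Adrb3, the beta3-adrenergic receptor, was at 81.5 ± 9.12 RPKM (SD, n = 4) in Ctrl and 35.6 ± 16.0 RPKM in Csn8AKO sWAT (log2 fold change -1.20, adjusted p = 0.0526). In BAT it was at 31.9 to 51.2 RPKM in Ctrl and 68.3 to 110.1 RPKM in Csn8AKO (1.09, adjusted p = 1.48e-04). The effects differed by 2.27 (adjusted p = 0.00175). Adrb1, the beta1 receptor, was lower in sWAT (-3.00, adjusted p = 0.0286) and had a log2 fold change of -0.13 in BAT, a difference of 2.90 (adjusted p = 0.00865), and Adra1a, an alpha1 receptor, was lower in sWAT (-3.06, adjusted p = 5.24e-04) and, by less, in BAT (-0.43, adjusted p = 0.0254), with a difference of 2.65 (adjusted p = 4.40e-05). Of the 28 genes of adrenergic input and cAMP signaling, 3 were lower and 1 higher of 27 tested in sWAT, and 7 were lower and 6 higher in BAT.

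Among 29 relatives of the 10 genes, Ucp2, a mitochondrial carrier also made by immune cells, was higher in both depots (0.81 in sWAT, adjusted p = 0.0331, and 1.19 in BAT, adjusted p = 5.05e-06). In all, 2 relatives were lower and 1 higher of 16 tested in sWAT, and 4 were lower and 6 higher of 19 in BAT. Of 24 secreted factors of brown fat, 3 were lower and 3 higher of 17 tested in sWAT, and 4 were lower and 8 higher of 20 in BAT. Gdf15, a stress-induced hormone, was at 0.0603 to 0.189 RPKM in Ctrl BAT and 1.23 to 12.4 RPKM in Csn8AKO BAT (5.67, adjusted p = 2.75e-04). Of 22 markers of beige and white adipocytes, 2 were lower and 2 higher of 20 tested in sWAT, and 2 were lower and 7 higher of 16 in BAT. Of 16 genes of creatine, calcium and lipid cycles, 1 was lower and 0 higher of 14 tested in sWAT, and 1 was lower and 4 higher of 13 in BAT.

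**Figure D4:**
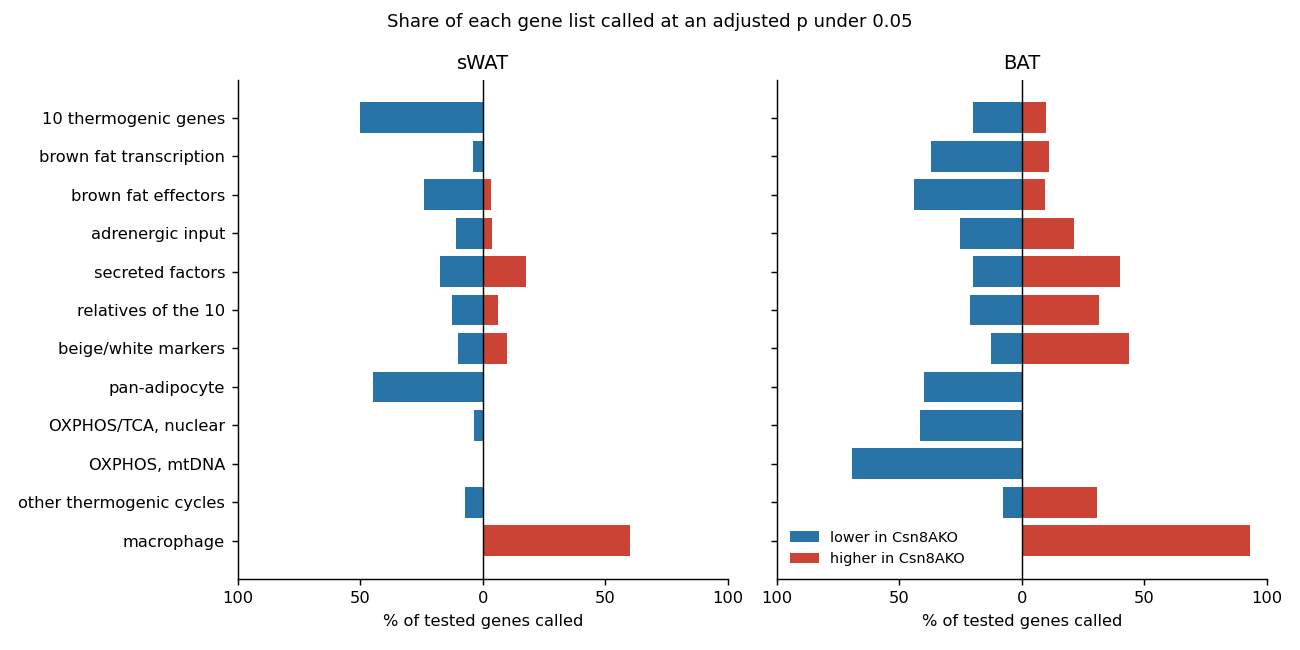
Percentage of the tested genes of each list called lower (blue, to the left) or higher (red, to the right) in Csn8AKO at an adjusted p under 0.05, in sWAT (left panel) and BAT (right panel). The 10 genes reach 50% lower in sWAT and 20% lower with 10% higher in BAT, and mitochondrially encoded genes reach 69.2% lower in BAT.

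Genes most like Ucp1 were sought over the 18 libraries. Across all libraries the closest were Hccs, Atad3a, Zfp672, Prelid3b and Tufm (Pearson r 0.991 to 0.993 of log2 CPM), and the other 9 members ranked from 140 (Ppargc1b) to 1475 (Elovl3) of 12335 genes. That likeness follows the gap between the depots. With each group's mean removed, the closest were Rdh13, Prelid3b, Otop1, Elovl6 and Eno1 (r 0.819 to 0.831), so Otop1 ranked 3, followed among the members by Cidea at rank 79 and Kcnk3 at rank 81. This ranking includes the sWAT libraries, where Ucp1 had few counts outside Ctrl replicate 2. In the 10 BAT libraries alone, deviations of Ucp1 from its group mean went with those of Elovl3 (r = 0.907), Otop1 (0.847), Dio2 (0.820) and Ppargc1a (0.770). The r was lower for Kcnk3 (0.695), Zic1 (0.446), Ppargc1b (0.428) and Cidea (0.377), and negative for Prdm16 (-0.386). These values describe libraries that share depth and tissue makeup.

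**Figure D5:**
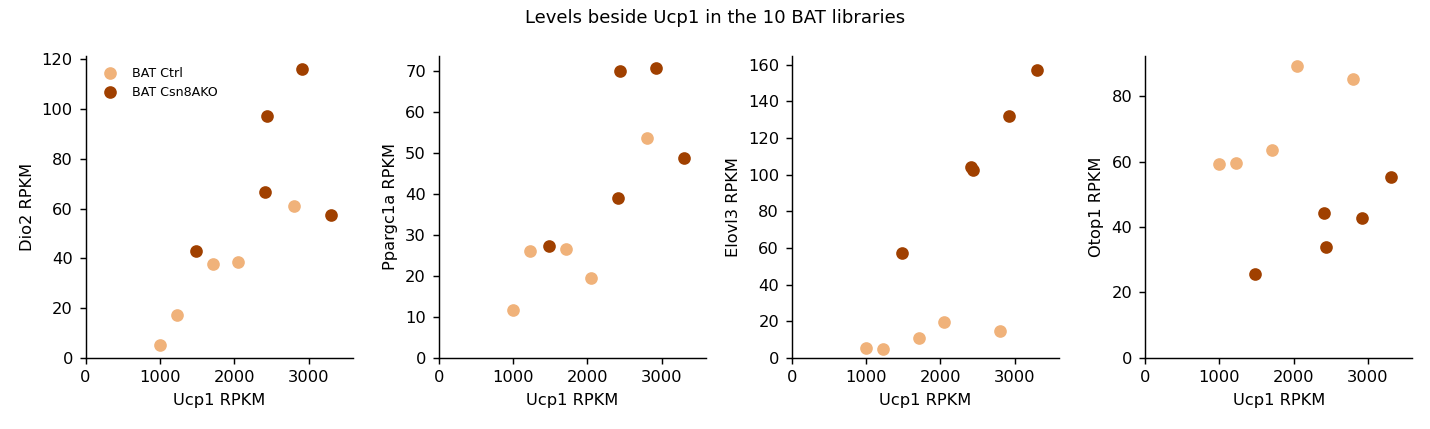
Level of Dio2, Ppargc1a, Elovl3 and Otop1 against Ucp1 in RPKM, on linear axes from 0, with 1 point per BAT library, Ctrl in light and Csn8AKO in dark orange. Elovl3 is at 57.2 RPKM or more in all 5 Csn8AKO libraries and at 19.7 RPKM or less in all 5 Ctrl libraries at overlapping levels of Ucp1.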

How the data were processed

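Total RNA depleted of ribosomal RNA was sequenced by the authors in paired reads of 150 bases, aligned to Ensembl release 101 (GRCm38) with STAR and counted on genes with featureCounts. The deposited values are raw counts, CPM, FPKM and TPM. CPM, FPKM and TPM were recomputed from the deposited counts by the authors' formulas and not used further. Groups came from the labels. The 10 genes, the gene lists and the rule for naming genes (all 10 members, up to 4 genes of smallest adjusted p per list and genotype comparison and 3 for the difference between depots, and the 5 most like Ucp1) were chosen with earlier results of these data known.

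Counts were tested with edgeR 4.0.16 in R 4.3.3 (TMM factors, genes kept by filterByExpr at 10 counts and 15 in total, robust quasi-likelihood tests, Benjamini-Hochberg adjustment over all genes tested), within each depot for genotype and over all 18 libraries for depot and for the difference between depots. Levels in RPKM and sums in CPM use TMM factors over all 18 libraries, so ratios of levels and fitted fold changes can differ slightly. Alternatives used DESeq2 1.42.0 (as the authors, in another version), limma 3.58.1, other scalings and filters, a replicate block, and leaving out each library. The scripts were checked on simulated data. Lists of nerve, endothelial, fibroblast, lymphocyte, muscle and epithelial markers were also summed. The tests set each difference against the spread between mice within groups, pooled over the groups of the fit. Libraries of 15835721 to 66719937 counts limit the precision of genes with few counts. Same-numbered libraries did not deviate together, so replicate numbers were not treated as pairs.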

Additional observations from a re-analysis of the deposited data

Results flagged for a closer look

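Chance flags about 1 in 20 groups of libraries as having a value far from the others, and 40 groups of member values were looked at. In Ctrl sWAT, replicate 2 lay far above the other 3 libraries for Ucp1 (4.16 RPKM) and Kcnk3 (14.5 RPKM), and replicate 3 for Zic1 (0.0403 RPKM, from 4 counts, with 0 in the others). In Csn8AKO BAT, replicate 2 lay far above the others for Cidea (1774 RPKM), and replicate 5 for Zic1 (1.89 RPKM).

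The genotype effect differed between the depots, by a test of the difference itself, for Cidea (7.02 on the log2 scale), Otop1 (2.60), Kcnk3 (1.98) and Prdm16 (1.33), with the effect more negative in sWAT. The depots were taken at different ages, and the part of age was not tested.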

How the results depend on the processing

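Of 1059 values of the 10 genes under alternatives, 1012 kept their direction and side of the threshold, 28 passed it newly, 8 no longer passed and 11 changed sign. All 10 genes were called higher in BAT than in sWAT in both genotypes under every alternative run. For Ucp1 and Zic1, with too few sWAT counts for a test within sWAT, these calls rest on their BAT counts. In sWAT 3 to 5 genes were called lower under all alternatives. The count called higher in sWAT was 1 when scaled to 5 adipocyte genes, 1 with limma voom, and 0 to 1 with single libraries left out (Elovl3, without Ctrl replicate 4). In BAT the count called lower was 0 with all 4 groups in one fit, and the count called higher was 3 with the replicate block (Dio2 and Ppargc1a added) and 1 to 3 with single libraries left out. The difference between depots had 1 gene called in the other direction, Ppargc1b (-1.25, adjusted p = 0.0142), when scaled to 5 adipocyte genes. The cause was not tested. The replicate block moved the calls over all genes in sWAT from 566 lower and 434 higher to 165 and 134, and in the difference between depots from 170 and 362 to 89 and 208. Correlations of same-numbered deviations were -0.42 to 0.28 in sWAT and -0.14 to 0.17 in BAT.

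Effects that changed sign were small or rested on few counts: Ppargc1b in sWAT (0.77 scaled to 5 adipocyte genes, -0.41 to 0.082 with single libraries left out), Prdm16 in BAT (0.12 with library size alone, 0.024 with limma voom, -0.074 to 0.044 with single libraries left out), Kcnk3 in BAT (-0.068 scaled to Rplp0 and Ppia), and the difference between depots for Dio2 (-0.41 scaled to 5 adipocyte genes, -0.39, without Ctrl sWAT replicate 4, to 0.90 with single libraries left out), Elovl3 (-0.60, without the same library, to 1.502) and Zic1 (-3.16, without Ctrl sWAT replicate 3, to 1.94). The difference between depots for Otop1 kept its size but missed the threshold without a filter (2.60, adjusted p = 0.0688), with limma voom (2.73, 0.115) and without Csn8AKO sWAT replicate 2 (2.40, 0.0583). Cidea in BAT passed under 7 alternatives, -0.45 to -0.81, among them DESeq2 (-0.53, adjusted p = 0.0316).

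Counts over all genes ranged under the other alternatives from 107 to 1419 lower and 106 to 6413 higher in sWAT, from 2087 to 5686 lower and 2098 to 4496 higher in BAT, and from 39 to 7515 lower and 184 to 737 higher in the difference between depots. With library size alone, 2087 genes were lower and 4183 higher in BAT, and 328 and 106 in sWAT. Scaled to Rplp0 and Ppia, 5686 were lower and 2098 higher in BAT, and 451 and 193 in sWAT. The settings that left out libraries rich in lymphocyte or muscle transcripts were chosen after seeing the data.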
